A study of Mus musculus with 8 samples.

Results

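The Usher syndrome genes were followed through the development of the mouse retina in 8 RNA-seq libraries. The members were the 9 rows listed under the symbols Ush1c, Ush1g, Cdh23, Pcdh15, Myo7a, Cib2, Gpr98, Clrn1 and Dfnb31, of 21826 genes that remained after small RNAs were left out. For 8 of them the symbol was found as given, and Dfnb31 was found under its RefSeq synonym Whrn, which is used from here on. Mice were of the background strain slc:ICR, with no genetic change or treatment in any library. Whole retina was sequenced at embryonic day (E) 15 and E18, and at postnatal day (P) 2, P5 and P8 the retina, pooled from several eyes, was sorted with an antibody to Cd73, the surface enzyme encoded by Nt5e that marks rod precursors and rods, into a positive fraction (Cd73PC) and a negative fraction (Cd73NC). Each condition had 1 library, so a difference between 2 libraries has no replicate check, and the 1 test below takes the 3 stages together.

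Usher syndrome joins hearing loss with a later degeneration of the photoreceptors, and in its type 1 also with loss of balance. In the hair cells of the inner ear the proteins build the hair bundle: the cadherins of Cdh23 and Pcdh15 form the tip links, the motor of Myo7a and the scaffolds of Ush1c and Ush1g anchor them, and the adhesion receptor of Gpr98 with the scaffold of Whrn forms the ankle links of the growing bundle. In photoreceptors several of the same proteins lie around the connecting cilium at the base of the outer segment. Myo7a also works in the pigment epithelium behind the retina, where it moves melanosomes and phagosomes. Clrn1 encodes clarin 1, a small membrane protein that underlies type 3, and Cib2 encodes a small calcium-binding protein of the hair cell transduction complex whose place among the Usher genes has been debated.

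The values are FPKM (fragments scaled to the length of the transcript and to all mapped fragments of the library), a level per length that can be set side by side between genes. Ratios between libraries are of FPKM + 1, and a gene was counted as higher or lower past 1.5-fold, the fold the study used. The bounds given with a level are those Cufflinks wrote for it, and they cover the estimate within 1 library, not the spread between animals. Depth could not be read from the tables in absolute terms, and from the steps of low values it lay between 0.965 and 1.62 times that of the E18 library. The sort could be followed in the levels: Nt5e was at FPKM 97.3, 131 and 124 in Cd73PC at P2, P5 and P8 and at 2.43, 31.4 and 9.38 in Cd73NC. All 6 genes of a rod list (Nrl, Nr2e3, Gnat1, Pde6b, Sag and Cnga1) were higher in Cd73PC at each stage. Their summed FPKM in Cd73NC was 1.65%, 12.5% and 6.80% of that in Cd73PC, with the largest percentage at P5.

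Of the 9 members, 6 reached an FPKM of 1 in any library, where 61.5% of all genes did, and 5 of them (Pcdh15, Cib2, Gpr98, Whrn and Clrn1) did so in all 8, where 46.4% of genes did. Myo7a reached 1 in the 3 Cd73PC libraries alone. Ush1c, Cdh23 and Ush1g stayed under 1 throughout. Pcdh15, Whrn and Myo7a were higher in Cd73PC at P2, P5 and P8, and Clrn1 was lower in Cd73PC at the same 3 stages. The ratios of Cib2 and Gpr98 each changed sign between P2 and P8. Of these, the P8 ratio of Cib2 passed 1.5-fold, and its P2 ratio and both ratios of Gpr98 did not. In these bulk fractions, fewer cells of a type and less RNA per cell cannot be told apart. In the P8 Cd73PC library Pcdh15 (FPKM 19.8) and Whrn (18.4) had the highest levels of the 9 genes, and in the P8 Cd73NC library Cib2 (19.6) and Clrn1 (12.5) did.

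**Figure D1:**
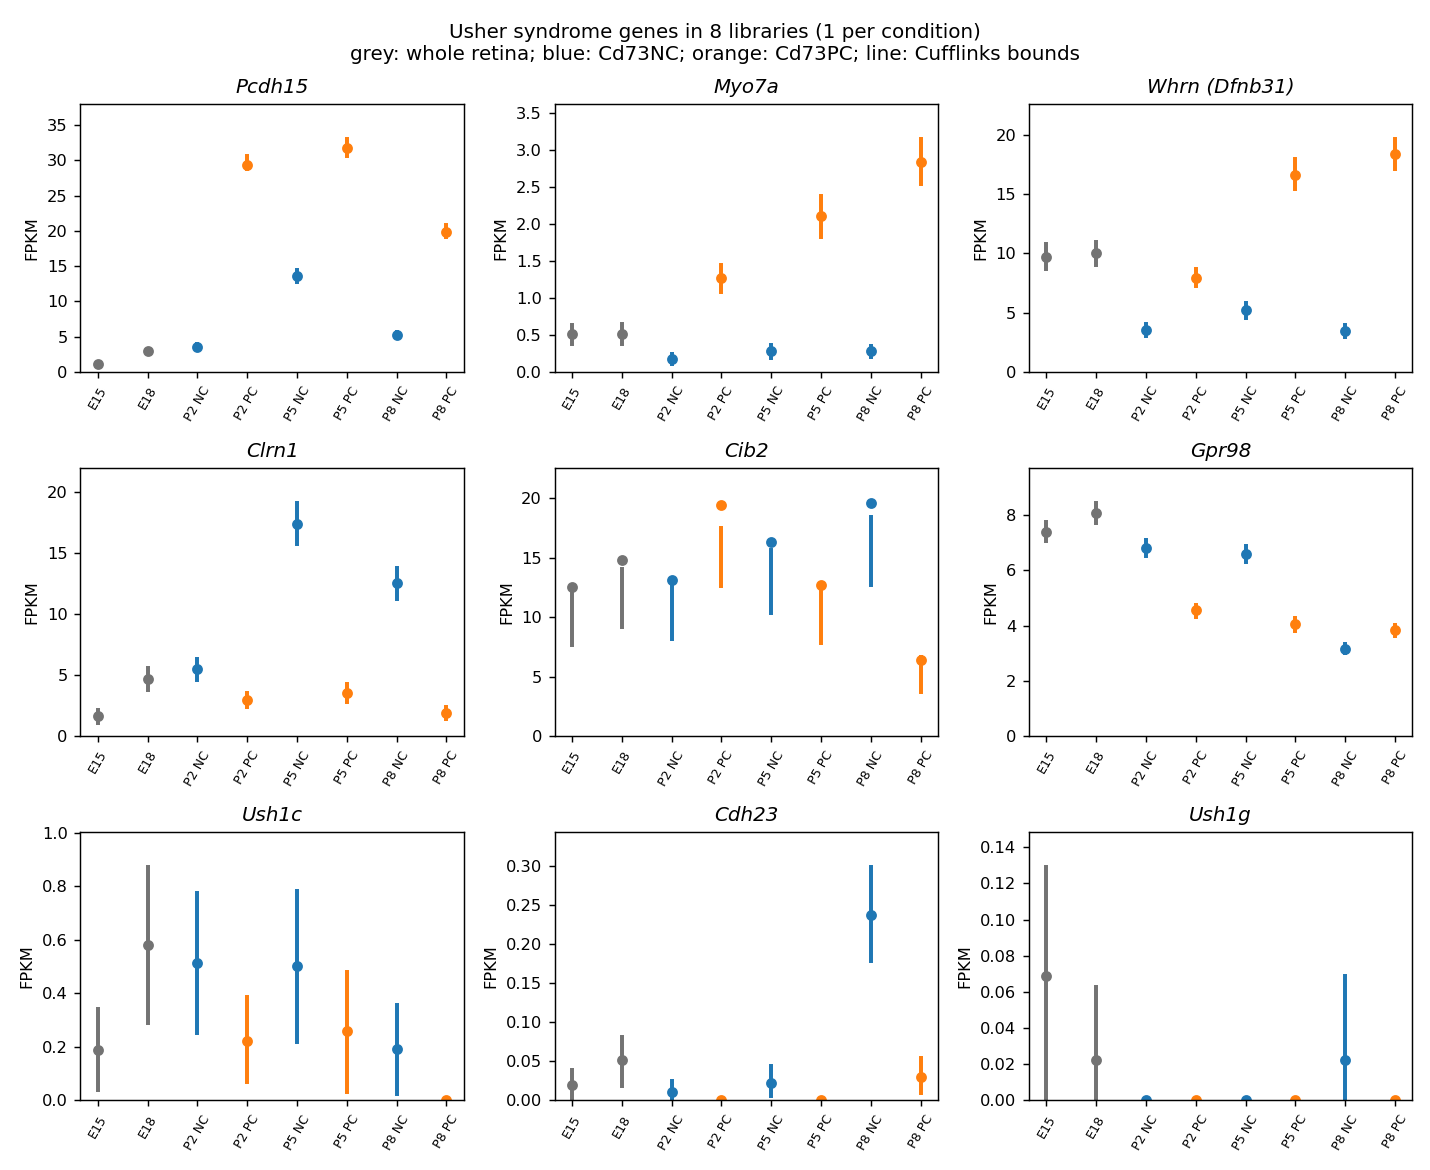
Level of each of the 9 genes in FPKM (vertical axis, its own scale in each panel, from 0) in the 8 libraries (horizontal axis), with points for the estimates and lines for the Cufflinks bounds. Pcdh15, Myo7a and Whrn have their postnatal high points in Cd73PC (31.7, 2.84 and 18.4), Clrn1 has its own in Cd73NC (17.4), and the bottom row stays under FPKM 1.

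The promoters of the 3 genes that were higher in Cd73PC and of Clrn1, which went the other way, are shown because these 4 genes carry the contrast between the fractions. The sequences are RefSeq promoter windows (table on GRCm38.p6) that matched the NCBI37/mm9 genome at exactly 1 place, which is the place given, and they run 5′ to 3′ on the strand of the gene. Of the 9 members, 8 had a window in the table. Capitals mark TGCTGA or its reverse complement TCAGCA, letters of the element that the rod factor NRL binds. TAATCC or GGATTA, the core that CRX and OTX2 bind, was searched too, on both strands, and was in none of these 4.
Pcdh15, chr10:73284365-73284664, plus strand: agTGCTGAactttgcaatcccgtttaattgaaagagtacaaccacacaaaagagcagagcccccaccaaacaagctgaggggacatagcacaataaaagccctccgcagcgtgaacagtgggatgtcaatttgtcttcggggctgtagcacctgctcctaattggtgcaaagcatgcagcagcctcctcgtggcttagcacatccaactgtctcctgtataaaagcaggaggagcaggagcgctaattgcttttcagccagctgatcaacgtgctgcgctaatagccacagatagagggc
Whrn, chr4:63156976-63157275, minus strand: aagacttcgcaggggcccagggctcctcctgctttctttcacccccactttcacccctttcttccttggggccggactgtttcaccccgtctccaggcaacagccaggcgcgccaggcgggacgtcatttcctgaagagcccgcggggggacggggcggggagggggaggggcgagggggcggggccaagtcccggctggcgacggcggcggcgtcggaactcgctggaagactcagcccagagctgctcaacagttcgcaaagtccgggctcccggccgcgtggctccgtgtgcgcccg
Myo7a, chr7:105267954-105268253, minus strand: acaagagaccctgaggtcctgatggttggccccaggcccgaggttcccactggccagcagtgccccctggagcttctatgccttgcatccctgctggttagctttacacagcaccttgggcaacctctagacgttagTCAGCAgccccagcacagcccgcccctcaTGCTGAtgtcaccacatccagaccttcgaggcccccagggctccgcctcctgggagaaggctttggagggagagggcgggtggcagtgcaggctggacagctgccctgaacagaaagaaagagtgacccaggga
Clrn1, chr3:58689085-58689384, minus strand: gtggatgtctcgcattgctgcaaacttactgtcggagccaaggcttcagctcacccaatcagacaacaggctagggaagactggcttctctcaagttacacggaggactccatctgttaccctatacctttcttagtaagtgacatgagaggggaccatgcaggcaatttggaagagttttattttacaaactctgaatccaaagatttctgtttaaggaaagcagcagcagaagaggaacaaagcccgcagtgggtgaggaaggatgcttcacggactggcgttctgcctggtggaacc
The Myo7a window held the NRL letters at 2 places, at −113 on the strand opposite the gene and at −84 on its own strand, counted from the start site, and the matches did not overlap. The Pcdh15 window held it at 1 place, at −248. A gene annotation lists an earlier start of Pcdh15, at chr10:72562090, for which no window is shown. Neither motif was in the Whrn or the Clrn1 window, nor in those of Cib2, Ush1c and Cdh23 or in the second window of Myo7a. The Gpr98 window held TAATCC at 1 place, at +8 on the opposite strand. Over all 32851 windows of the same length in the table, 19.5% held TGCTGA and 7.06% held TAATCC on either strand, so these matches describe the letters only. G and C made up 70.0% of the Whrn window, 62.0% of that of Myo7a, 50.7% of that of Pcdh15 and 48.7% of that of Clrn1.

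Pcdh15 encodes protocadherin 15, the lower part of the tip link (file coordinates chr10:73284615-74112477 of mm9, plus strand, 36 exons in its longest coding transcript). Its FPKM was 1.12 at E15 and 2.93 at E18, then 29.4, 31.7 and 19.8 in Cd73PC at P2, P5 and P8 and 3.54, 13.6 and 5.21 in Cd73NC. All 3 Cd73PC libraries were above all 3 Cd73NC libraries, and none of the bounds of Cd73PC reached those of Cd73NC. Cd73PC over Cd73NC the FPKM ratio across the postnatal stages was 8.31 (7.42 to 9.55 at the bounds), then 2.32 (2.13 to 2.58) and finally 3.80 (3.41 to 4.32). The P5 Cd73NC library had the highest Pcdh15 level of the 3 negative fractions. Of the 3 it also had the highest Nt5e level and the highest rod list sum relative to Cd73PC. Their part in the Pcdh15 ratio was not tested. At P2 Pcdh15 was above 87.5% of all genes in Cd73PC and above 54.7% in Cd73NC. The 6 rod genes were lower in Cd73NC relative to Cd73PC than Pcdh15 was: its Cd73NC level was 12.0% of that in Cd73PC against 0.0556% to 4.74% for the rod genes on postnatal day 2, 43.1% against 5.55% to 21.1% on day 5 and 26.3% against 5.13% to 7.87% on day 8.

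Whrn encodes whirlin, a scaffold with PDZ domains that belongs to type 2 (chr4:63075944-63156985, minus strand, 13 exons). Whole retina stood at FPKM 9.72 at E15 and 10.0 at E18, Cd73PC at 7.95, 16.6 and 18.4 at P2, P5 and P8, and Cd73NC at 3.54, 5.19 and 3.40. The level in Cd73PC was higher at P5 than at P2 beyond the bounds, which overlapped between P5 and P8, while that in Cd73NC stayed between 3.40 and 5.19. The FPKM ratio of Cd73PC over Cd73NC began at 2.24 at P2 (1.78 to 2.87 at the bounds), reached 3.21 by P5 (2.63 to 3.96) and was 5.40 by P8 (4.36 to 6.79). Whrn differed from the rod genes before birth, since its level in whole retina was above that in P2 Cd73PC while the summed FPKM of the rod list was 6.56 at E15, 79.3 at E18 and 3035 in P2 Cd73PC. Relative to Cd73PC its Cd73NC level went from 44.6% over 31.2% to 18.5% with stage, each time above the highest of the 6 rod genes.

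Myo7a encodes myosin VIIA, an unconventional myosin motor and a type 1 gene (chr7:105199570-105268003, minus strand, 49 exons). Its levels were low: FPKM 0.508 at E15, 0.509 at E18, 1.26, 2.10 and 2.84 in Cd73PC at P2, P5 and P8, and 0.175, 0.274 and 0.276 in Cd73NC. The 3 Cd73PC levels rose in order of stage with bounds that did not overlap, and those of Cd73NC overlapped each other. With FPKM taken directly, Cd73PC over Cd73NC came to 7.19 for P2 (4.48 to 13.5 at the bounds), 7.66 for P5 (5.06 to 13.2) and 10.3 for P8 (7.19 to 16.0), while on FPKM + 1 the ratios were 1.92, 2.43 and 3.01, since the added 1 weighs on a gene of this level. The Cd73NC level was 13.9%, 13.1% and 9.70% of that in Cd73PC, inside the range of the rod genes at P5 and above it at P2 and P8.

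The pigment epithelium, which also uses Myo7a, lies against the retina, so a list of 8 of its genes (Rpe65, Best1, Lrat, Tyrp1, Dct, Tyr, Mlana and Slc45a2) was read beside it. The summed FPKM of the list was 1.93, 16.0 and 18.3 in Cd73NC and 35.0, 23.7 and 36.7 in Cd73PC at P2, P5 and P8. Of the 8 genes 4, 2 and 2 were higher in Cd73PC at those stages with 0 lower, where 8.56%, 7.02% and 7.54% of all genes were higher. Apart from Rpe65 and Best1, the list names genes of pigment synthesis and melanosomes besides Lrat, and those past the threshold were Tyrp1, Dct, Tyr and Mlana. Much of the P2 sum lay in Tyrp1 (13.3 in Cd73PC against 0.270 in Cd73NC) and Dct (16.0 against 1.04). Best1 stayed under FPKM 1 and was lower in Cd73PC at each stage (0.109, 0 and 0.0278 against 0.445, 0.0307 and 0.163), short of 1.5-fold. Rpe65, the isomerase of the visual cycle, was listed at 0 in both P2 libraries. It was at 0.253 in Cd73PC and 0.351 in Cd73NC at P5, and at 4.26 and 2.59 at P8. The part of such cells in the Myo7a levels was not tested.

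Clrn1 (chr3:58649137-58689134, minus strand, 4 exons) ran the other way. FPKM was 1.60 at E15 and 4.66 at E18, 5.47, 17.4 and 12.5 in Cd73NC at P2, P5 and P8, and 2.97, 3.55 and 1.89 in Cd73PC. Cd73NC was above Cd73PC at each stage with no overlap of the bounds, with FPKM ratios of 1.84 (1.30 to 2.65 at the bounds), 4.91 (3.65 to 6.83) and 6.60 (4.66 to 10.0) in order of stage. At P2 the log2 ratio of FPKM + 1 was −0.71, and with quantile scaling it was −0.50, so that the difference then passed 1.5-fold at P5 and P8 but not at P2. A threshold of 2-fold had the same effect. The P5 Cd73NC library held the highest level, above that of P8 Cd73NC beyond the bounds. Müller glia genes were also higher in Cd73NC: of Rlbp1, Glul, Slc1a3, Apoe and Dkk3, 4 at P2 and all 5 at P5 and P8 were lower in Cd73PC, none was listed at 0 in any library, and their summed FPKM in Cd73NC was 1089, 1510 and 1222 against 478, 402 and 319 in Cd73PC. From P2 to P8 within Cd73NC, 2 of the 5 were higher (Rlbp1 and Apoe) and 2 lower (Glul and Dkk3), with a median log2 ratio of FPKM + 1 of −0.24 against 1.06 for Clrn1. The bipolar list (Grm6, Trpm1, Cabp5, Prkca and Vsx1) summed to 4.90, 30.2 and 613 in Cd73NC and 11.9, 11.9 and 74.7 in Cd73PC. The part of either cell type in the Clrn1 levels was not tested.

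Cib2 (chr9:54393159-54407886, minus strand, 6 exons) turned from 1 fraction to the other. Whole retina had FPKM 12.5 at E15 and 14.8 at E18, Cd73PC had 19.4, 12.7 and 6.36 at P2, P5 and P8, and Cd73NC had 13.1, 16.3 and 19.6. The Cd73PC level fell at both steps and the Cd73NC level rose at both. On FPKM + 1 the log2 ratio of Cd73PC over Cd73NC went from 0.53 over −0.34 to −1.48 with stage, of which the last alone was past 1.5-fold. With upper quartile and with quantile scaling Cib2 also passed at P2, with 0.62 and 0.60. At P8 the bounds were 3.69 to 6.67 in Cd73PC and 12.7 to 18.4 in Cd73NC and did not overlap, whereas at P2 and P5 they did. In 5 of the 8 libraries the Cib2 estimate lay above its own upper bound, which happened for no other member. With the midpoint of the bounds in place of the estimate the levels were 15.1 and 5.18 in Cd73PC and 10.7 and 15.5 in Cd73NC at P2 and P8, in the same order.

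Gpr98 (chr13:81234067-81772143, minus strand, 90 exons, with 18894 coding bases the longest of the 9) encodes the very large adhesion receptor of type 2. It was at FPKM 7.41 at E15, 8.09 at E18, 4.55, 4.05 and 3.83 in Cd73PC at P2, P5 and P8, and 6.81, 6.60 and 3.17 in Cd73NC. Its levels spanned 2.55-fold, the narrowest span of the 6 members that reached FPKM 1. Cd73NC was 1.5-fold above Cd73PC on FPKM at P2 (1.37 to 1.64 at the bounds) and 1.63-fold at P5 (1.47 to 1.81), and at P8 Cd73PC was 1.21-fold above Cd73NC (1.08 to 1.35). On FPKM + 1 the difference passed 1.5-fold at P5 alone, with a ratio of 1.5 that lies at the threshold, and it did not pass there under either of the other scalings run. With quantile scaling Gpr98 passed at P8 in the other direction, higher in Cd73PC by a log2 ratio of 0.64, against 0.21 with the values as deposited.

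The other 3 type 1 genes were barely represented. Ush1c, the scaffold harmonin (chr7:53450721-53493860, minus strand), had its highest FPKM of 0.579 at E18 and was listed at 0 in P8 Cd73PC. Between these lay 0.186 at E15, 0.511, 0.501 and 0.191 in Cd73NC and 0.223 and 0.258 in Cd73PC at P2 and P5. Cd73NC was higher at each stage, but the bounds overlapped at P2 and P5. At P8 the lower and upper bounds in Cd73PC were also listed at 0. Such bounds overlap no lower bound above 0 (0.0238 in Cd73NC), so they give no check of the P8 difference.

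Cdh23, the upper part of the tip link (chr10:59766022-60159238, minus strand, 71 exons), was at 0.0198 at E15 and 0.0511 at E18. In Cd73NC it was at 0.0101, 0.0222 and 0.237 at P2, P5 and P8, and in Cd73PC it was listed at 0 at P2 and P5 and was at 0.0302 at P8. The P8 Cd73NC library stood apart, with bounds of 0.179 to 0.299 that reached those of no other library. It was also the library with the highest bipolar sum and with the highest FPKM (2.91, against 0.191 to 2.14 in the others) of 4632428N05Rik, a gene on the opposite strand within the Cdh23 span. The 2 genes share 0 annotated exon bases, but the kit did not mark strand, so reads in the overlap cannot be told apart by strand.

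Ush1g, the scaffold SANS (chr11:115176506-115183232, minus strand, 3 exons), was listed at 0 in 5 of the 8 libraries and had FPKM 0.0690 at E15, 0.0222 at E18 and 0.0221 in P8 Cd73NC. Otop2, which overlaps it on the opposite strand, was listed at 0 in all 8.

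Counted against the rest of the genes, 3 of the 9 members were higher in Cd73PC at P2 (Pcdh15, Myo7a and Whrn), where 8.56% of all genes tested were, and 1 was lower (Clrn1), where 14.4% of genes were. At P5 the same 3 were higher against 7.02% of genes, and Gpr98 and Clrn1 were lower against 15.5%. At P8 those 3 were higher against 7.54%, and Cib2 and Clrn1 were lower against 18.6%. At all 3 stages 3 members were higher and 1 was lower, against 3.51% and 7.83% of genes. Among genes with FPKM of at least 1 in either library, which the 6 expressed members are, 14.5%, 12.3% and 13.0% of genes were higher and 25.0%, 27.0% and 31.3% were lower at P2, P5 and P8. The lower calls were near this background. The higher calls, 3 of 6, include Myo7a, which entered the set through its Cd73PC level alone, so its call was not independent of the filter. The median log2 ratio of the 9 members was 0.00, −0.03 and −0.03 against 0.00, 0.00 and −0.02 over all genes, and of the 6 expressed members 0.74, 0.41 and 0.90 against −0.14, −0.18 and −0.23 over genes at FPKM 1 or more. The medians of the 6 expressed members include Myo7a as well. The 3 comparisons use different libraries, and each has 1 per side.

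At each stage both fractions came from the same retinas, so the 6 sorted libraries form 3 pairs. Cd73PC was compared with Cd73NC over these pairs with limma on log2(FPKM + 1), with stage as the block, among 13055 genes with FPKM of at least 1 in any sorted library. In this fit Pcdh15 was higher in Cd73PC by 1.88 ± 0.31 on the log2 scale (SE, n = 3 pairs, limma with Benjamini-Hochberg adjusted p = 0.0116). Whrn was higher by 1.54 ± 0.25 (limma adjusted p = 0.0109) and Myo7a by 1.27 ± 0.22 (limma adjusted p = 0.0139). Clrn1 had a difference of −1.65 ± 0.32 (limma adjusted p = 0.0189). Each of the 4 had the same direction in 3 of 3 pairs. Cib2 with −0.43 (95% interval −1.37 to 0.51) and Gpr98 with −0.29 (−0.84 to 0.26) did not pass. Thus 3 of the 6 expressed members were higher and 1 was lower, against 8.90% and 19.2% of the genes tested. Myo7a was among the genes tested only through its Cd73PC levels, so its call was not independent of that filter. Without the P5 pair the directions of these 4 were the same but 0 of them passed, with limma adjusted p of 0.0575 for Pcdh15, 0.140 for Myo7a, 0.103 for Whrn and 0.155 for Clrn1, and the calls over all genes went from 1162 higher and 2505 lower to 179 and 110. Without the P8 pair Clrn1 did not pass (limma adjusted p = 0.0568). The fit takes the stages as replicates, so a ratio that changes with stage counts as error.

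**Figure D2:**
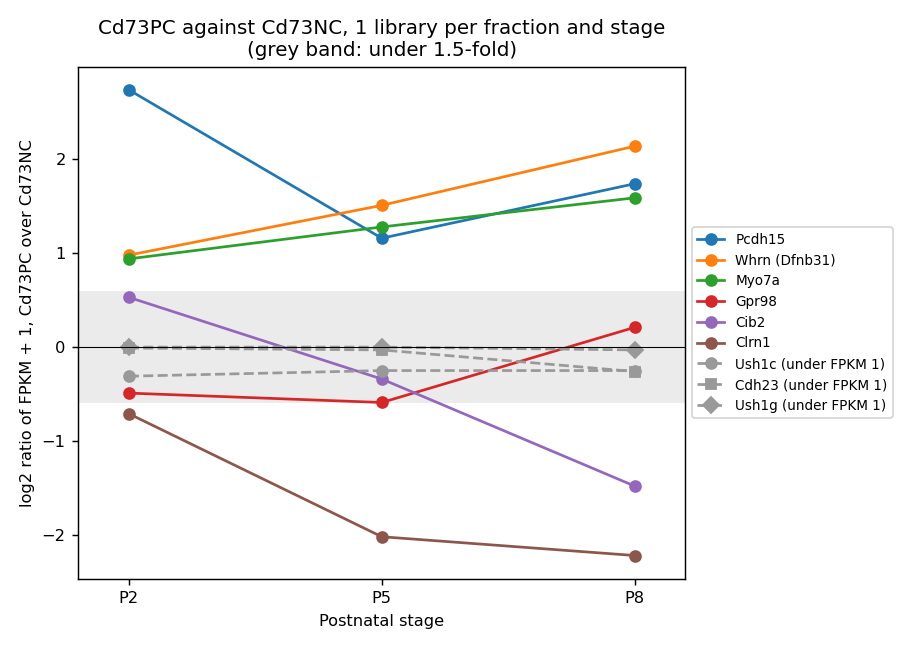
Log2 ratio of FPKM + 1 of Cd73PC over Cd73NC (vertical axis) at P2, P5 and P8 (horizontal axis) for the 9 genes, 1 library per fraction and stage, with the band under 1.5-fold in grey. Pcdh15, Whrn and Myo7a stay above the band (2.74, 0.98 and 0.94 at P2), Clrn1 stays below it (−2.22 at P8) and Cib2 goes from 0.53 to −1.48.

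**Figure D3:**
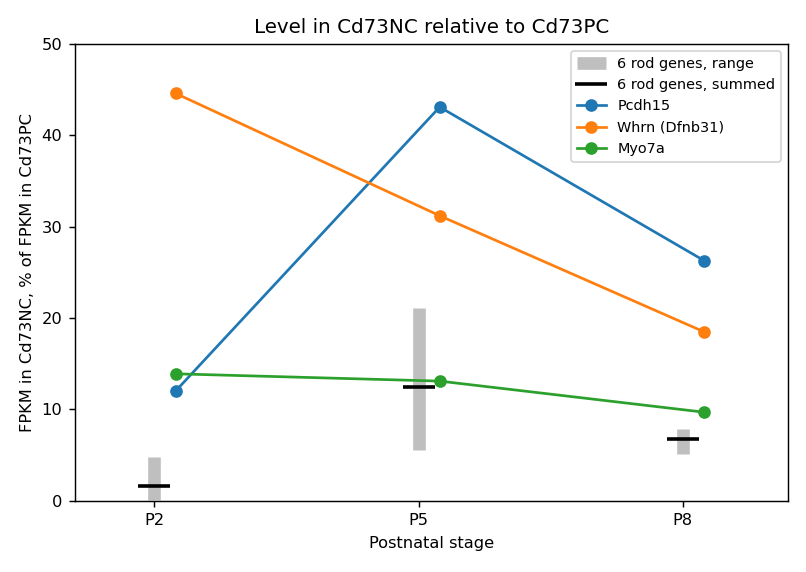
FPKM in Cd73NC as a percentage of FPKM in Cd73PC (vertical axis, from 0) at P2, P5 and P8 (horizontal axis) for Pcdh15, Whrn and Myo7a (points), with the range (grey bar) and the summed level (black line) of 6 rod genes. The points lie above the rod range except for Myo7a at P5 (13.1%), and Whrn goes down from 44.6% to 18.5% while the rod sum goes from 1.65% over 12.5% to 6.80%.

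Within Cd73PC from P2 to P8, Myo7a (log2 ratio of FPKM + 1 of 0.77) and Whrn (1.11) were higher at P8, where 6.40% of genes were, and Cib2 (−1.47) was lower, where 14.7% of genes were. Pcdh15, with −0.55, was short of the threshold although its bounds did not overlap. In Cd73NC Clrn1 (1.06) was higher at P8 against 13.5% of genes and Gpr98 (−0.91) was lower against 14.3%. Pcdh15 in Cd73NC had 0.45, with bounds that did not overlap, while the bounds of Cib2 (0.54) and Whrn (−0.04) in Cd73NC and of Clrn1 (−0.45) in Cd73PC overlapped. Over the same interval 4 of 6 rod genes (Gnat1, Pde6b, Sag and Cnga1) were higher at P8 in Cd73PC and 6 of 6 in Cd73NC. In Cd73PC Nrl (0.53) and Nr2e3 (0.26) were short of the threshold. The Pcdh15 ratio in Cd73PC was thus negative where the rod ratios were positive. Nr2e3, like Pcdh15, had its highest Cd73PC level at P5 (FPKM 950, 1433 and 1140 in order of stage).

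**Figure D4:**
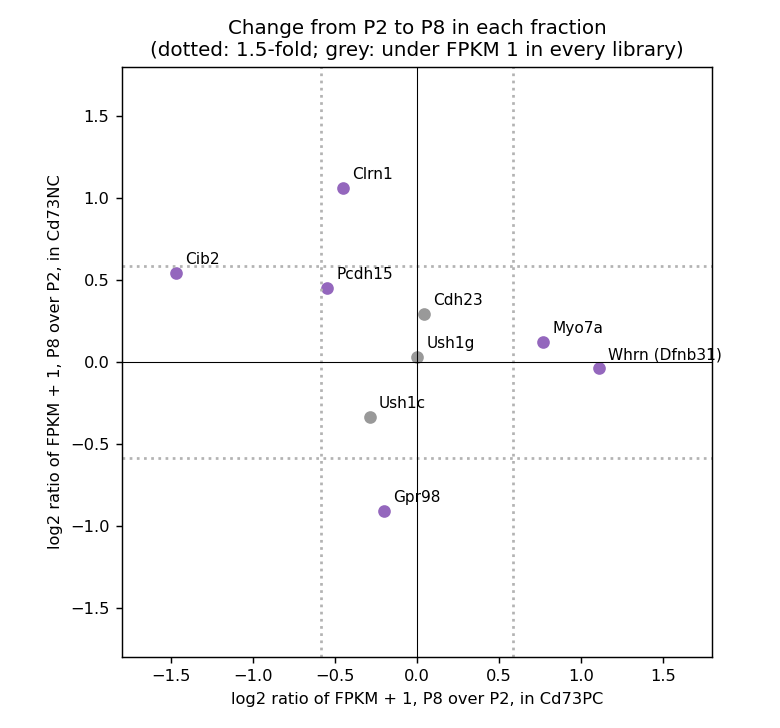
Log2 ratio of FPKM + 1 of P8 over P2 in Cd73PC (horizontal axis) and in Cd73NC (vertical axis), a point for each gene, with dotted lines at 1.5-fold. Whrn and Myo7a lie to the right (1.11 and 0.77), Cib2 to the left (−1.47), Clrn1 at the top (1.06) and Gpr98 at the bottom (−0.91).

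Before birth, from E15 to E18 in whole retina, Clrn1 (log2 ratio of FPKM + 1 of 1.12) and Pcdh15 (0.89) were higher at E18, where 4.60% of genes were. Their bounds did not overlap, and on FPKM the ratios were 2.92 for Clrn1 (1.74 to 5.38 at the bounds) and 2.62 for Pcdh15 (1.90 to 3.72). No member was lower, against 2.10% of genes. Myo7a, Whrn, Gpr98 and Cib2 lay between 0.00 and 0.23 with overlapping bounds.

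The 6 expressed members did not share a course over the 8 libraries. Pearson's r of log2(FPKM + 1), given as a description over 8 points that share their libraries, was 0.87 between Myo7a and Whrn, 0.70 between Pcdh15 and Myo7a and 0.40 between Pcdh15 and Whrn, and −0.71 between Whrn and Clrn1. Whrn and Gpr98, the type 2 genes, had −0.13. Among 10858 genes with FPKM of at least 5 in any library, the 3 nearest to each member by the same measure were Fam89a (0.995), Pdk2, a kinase of pyruvate dehydrogenase (0.994), and Elovl2, a fatty acid elongase (0.992), for Pcdh15. For Myo7a they were the PDZ scaffold Mpdz (0.988), Radil (0.987) and Gnb1, the beta subunit of rod transducin (0.987), and for Whrn they were Apex2 (0.981), Ccdc157 (0.973) and Trim36 (0.964). Clrn1 was nearest to Creg2 (0.996), Itfg3 (0.987) and the semaphorin Sema5b (0.979). Cib2 was nearest to 1110003E01Rik (0.963), the late endosome GTPase Rab7 (0.955) and Ing4 (0.948), and Gpr98 to Gm15645 (0.982), Gzf1 (0.975) and Ubox5 (0.973). With a pseudocount of 0.1, 1 of the 3 stayed for Pcdh15 (Fam89a) and 1 for Myo7a (Mpdz), 2 stayed for Gpr98 and for Clrn1, and all 3 for Cib2 and for Whrn.

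For Pcdh15, Myo7a and Clrn1 the levels of the nearest gene are given. These genes were picked by likeness over the same libraries, so a like course is no added support. Fam89a, like Pcdh15, was at FPKM 34.8, 33.7 and 27.9 in Cd73PC at P2, P5 and P8 and at 4.32, 17.2 and 7.14 in Cd73NC, with the same high P5 value in Cd73NC. Mpdz, like Myo7a, went up in Cd73PC (13.8, 16.9 and 22.4) and stayed between 7.37 and 7.97 in Cd73NC. Creg2 had, as Clrn1 had, its highest level in P5 Cd73NC (10.5) and its lowest postnatal level in P8 Cd73PC (0.896).

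Genes that work with the Usher proteins were read from 3 lists, chosen with earlier results of these data known. Of 9 genes for binding partners, in Cd73PC 5 were higher and 1 lower on postnatal day 2, 5 and 2 on day 5 and 3 and 1 on day 8. Their medians of the log2 ratio were 1.07, 0.67 and −0.11. Over all genes 8.56%, 7.02% and 7.54% were higher and 14.4%, 15.5% and 18.6% were lower. Myrip, which links the myosin VIIA motor to Rab27a on melanosomes, was higher at all 3 stages (FPKM 3.13, 6.22 and 9.11 in Cd73PC, 0.458, 2.48 and 3.05 in Cd73NC). Plekhb1, a membrane protein of photoreceptors that binds myosin VIIA, was higher as well (234, 527 and 801 against 34.8, 122 and 109), as was the bicarbonate cotransporter Slc4a7 (30.2, 36.2 and 58.7 against 13.9, 20.4 and 10.9). Lrrc4c, a netrin G ligand, was lower at all 3 stages (1.57, 1.18 and 2.14 against 6.88, 8.87 and 15.7). Vezt and Mpp1 were not higher in Cd73PC at any stage.

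Of 18 other hair bundle genes, in Cd73PC 3 were higher and 2 lower on postnatal day 2, 3 and 3 on day 5 and 2 and 3 on day 8, with medians of 0.00, 0.00 and −0.01, near those of all genes. Several genes of the transduction complex, the stereocilia links and the bundle's motors were near 0, with Tmc1, Tmc2, Strc, Ptprq, Myo15 and Myo3a at FPKM 0.0283 or less in each library. Others of these classes were not: Lhfpl5 of the transduction complex reached 2.34 at E18, and the motor gene Myo6 lay between 2.07 and 9.33. Fscn2, an actin bundler of photoreceptors, was higher in Cd73PC at all 3 stages (2.79, 9.43 and 18.4 against 0.414, 1.33 and 1.68), and so was the actin regulator Eps8 (2.98, 5.88 and 15.8 against 0.821, 3.53 and 10.1), by ratios of 0.60 and 0.59 on the log2 scale at P5 and P8, just past the threshold. The actin bundler Espn (30.0, 17.9 and 6.37 against 109, 64.8 and 40.4) and the spindle protein Gpsm2 (10.3, 3.50 and 3.60 against 26.3, 10.8 and 13.7) were lower. Of 10 paralogues and brush border counterparts, Cdhr1, the photoreceptor cadherin, was higher in Cd73PC at all 3 stages (264, 587 and 917 against 34.2, 153 and 118). Cib1, a paralogue of Cib2, was at 21.3, 28.8 and 24.0 in Cd73PC and 20.3, 18.7 and 13.8 in Cd73NC, higher in Cd73PC at P5 and P8, where the ratio of Cib2 was negative. Clrn2 and Clrn3, the paralogues of Clrn1, were at 0.111 or less in each library.

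**Figure D5:**
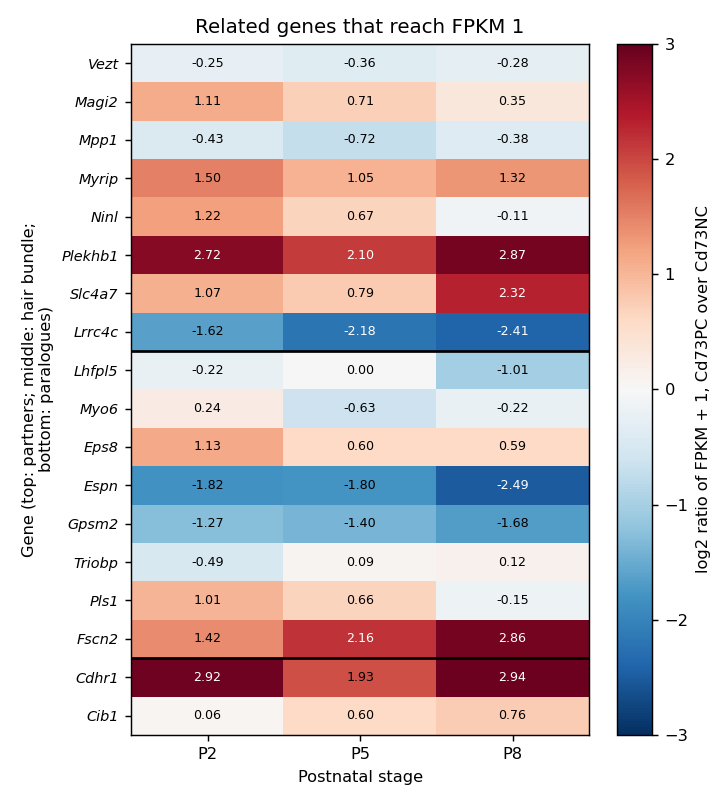
Log2 ratio of FPKM + 1 of Cd73PC over Cd73NC at P2, P5 and P8 (columns) for the genes of the 3 related lists that reach FPKM 1 in any library (rows), with red for higher in Cd73PC and blue for lower and the value in each cell. Plekhb1 and Cdhr1 are red throughout (2.87 and 2.94 at P8), and Lrrc4c, Espn and Gpsm2 are blue throughout (−2.41, −2.49 and −1.68 at P8).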

How the data were processed

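RNA was measured in whole retina at E15 and E18 and, at P2, P5 and P8, in both sorted fractions, 1 library per condition, grouped by the labels. Per the labels and the methods of the study, poly(A) RNA was read single-end over 36 bases (CASAVA 1.8.2, bcl2fastq 1.8.4) and aligned to NCBI37/mm9 with TopHat2 2.0.8b. The authors deposited FPKM with bounds for 23021 rows per library, made with Cufflinks 2.1.1 at default settings. Raw counts were not used here, so no count model, interval from counts or detection floor was possible and an exact 0 is given as listed at 0. Rows of small RNAs (798) were left out and rows with the same symbol were summed, which gave 21826 genes. Rows with a failed estimate were left out of a comparison. Ratios are of FPKM + 1 with a threshold of 1.5-fold. All 9 members were named. From each related list the 2 genes with the highest FPKM and those past the threshold in 1 direction at all 3 stages could be named, other genes named there were chosen after their values were seen, and for each expressed member the 3 genes with the highest Pearson's r. The members and lists were chosen with earlier results of these data known. The cone, ganglion, horizontal, progenitor and amacrine lists were read as well, and 3 of the 5 amacrine genes were used here. A gene chosen for the rod list beside the 6 named is not reported here. Of 5 progenitor genes, 5 were lower in Cd73PC at each stage, and of 5 cone genes 1, 0 and 2 were higher and 0, 1 and 0 lower at P2, P5 and P8. Of 5 ganglion genes 3, 1 and 1 were lower, of 3 horizontal genes 0 passed the threshold, and of the 3 amacrine genes 1 was higher at each stage while 2, 1 and 1 were lower. Alternatives were a pseudocount of 0.1, a filter at FPKM 1, upper quartile and quantile scaling, a threshold of 2-fold, bounds that do not overlap and, added after the data were seen, the midpoint of the bounds and a limma fit (R 4.3.3, limma 3.58.1, trended variance, 2 residual degrees of freedom) over the 3 pairs of fractions, which per the methods of the study came from the same retinas. The calculation (Python 3.11.15, pandas 2.3.3, numpy 2.4.6, matplotlib 3.10.9) was tested on simulated data.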

Additional observations from a re-analysis of the deposited data

Results flagged for a closer look

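Cib2 moved opposite ways from P2 to P8 in the 2 fractions. The log2 ratio of FPKM + 1 of P8 over P2 was −1.47 in Cd73PC and 0.54 in Cd73NC, and each fraction moved in its own direction at both steps, over P5 (FPKM 19.4, 12.7 and 6.36 in Cd73PC, 13.1, 16.3 and 19.6 in Cd73NC). The change in Cd73NC was short of 1.5-fold and its bounds overlapped. With 1 library per stage and fraction the difference between the fractions was not tested.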

How the results depend on the processing

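In the paired fit over stages, chosen after the data were seen, with stage as the block, 3 members were higher in Cd73PC and 1 was lower, the same 4 genes as past 1.5-fold at all 3 stages; with each pair left out in turn the counts ranged from 0 to 3 higher and from 0 to 1 lower. Of the counts of members past the threshold, 86 stayed within 1.5 times of the reported count and 22 did not, and of 108 ratios of single members 102 stayed, 6 moved (Ush1c, Cdh23 and Myo7a, with a pseudocount of 0.1) and 0 changed sign. With a threshold of 2-fold, 1 member was higher in Cd73PC at P2 (Pcdh15, against 4.41% of all genes) and 0 were lower (against 7.15%). At P5 1 was lower (Clrn1, against 8.09%). At all 3 stages 1 was higher (Pcdh15) and 0 were lower. From P2 to P8, 1 was higher in Cd73PC (Whrn, against 2.76%) and 0 were lower in Cd73NC (against 7.10%). In whole retina 1 was higher at E18 (Clrn1, against 1.56%). With a pseudocount of 0.1, which lets low genes pass, 2 were lower in Cd73PC at P2, against 20.7% of all genes, and at all 3 stages (Ush1c and Clrn1). At P8 4 were lower (Ush1c, Cdh23, Cib2 and Clrn1), against 28.0% of genes. From P2 to P8, 3 were lower in Cd73PC against 22.1% of genes. In Cd73NC 2 were higher against 20.7% and 2 were lower against 19.0%. Quantile scaling left 0 lower at P2 (against 11.9% of all genes), 1 at P5 (Clrn1, against 10.9%) and 0 at all 3 stages. Upper quartile scaling left 1 lower at P5 (against 13.6%) and 2 higher at P8 than P2 in Cd73NC (Cib2 and Clrn1, against 15.2%). For the counts at all 3 stages no share of all genes is given under these settings. The cause of the moved counts was not tested.

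Quantile scaling moved the median log2 ratio of genes at FPKM 1 or more from −0.14, −0.18 and −0.23 to −0.04, 0.01 and 0.03 at P2, P5 and P8, and the shares of all genes called higher and lower to 10.4% and 10.9% at P5, 12.2% and 12.6% at P8 and, from P2 to P8 in Cd73PC, 9.92% and 9.88%. With a pseudocount of 0.1, 10.7% of genes were higher at E18 than at E15. The relative depths cover reads only, and without counts the precision of levels under FPKM 1 (Ush1c, Cdh23 and Ush1g) is known from the bounds alone.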
